A study of Mus musculus with 21 samples.

Results

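PreMegE, the pre-megakaryocyte-erythroid progenitor, was compared with KLS, the fraction that holds the stem cells and multipotent progenitors of the bone marrow. The members were chosen by title: the 3 arrays named PreMegE and the 3 named KLS, 6 of the 21 arrays in the series. The cells were bone marrow cells from C57BL/6 animals for which no genetic change or treatment is stated, and neither age nor sex nor the number of mice behind an array was given. The labels define KLS as lin- ckit+ sca1+ cells. They define PreMegE as lin- ckit+ sca1+ CD150+ CD105- FGCrI/II-, and PreGM, also used here, as the same gate without CD150 (lin- ckit+ sca1+ CD150- CD105- FGCrI/II-). The other fractions were CFUe, whose gate is worded as that of PreGM, Ter119 (CD71+ Ter119+), GMP (lin- ckit+ sca1+ CD150- FCGrI/II+) and Mac1Gr1 (Mac1+ Gr1+). Nothing in the labels says whether the 3 arrays of a fraction came from separate mice, so the spread behind the p values may be technical. That spread was pooled within the 7 fractions over all 21 arrays, not taken from KLS and PreMegE alone. A wide spread in another fraction can therefore keep a gene from being called.

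Red cells and platelets share a progenitor that no longer makes lymphocytes, granulocytes or monocytes. GATA1, a zinc finger transcription factor, works with its cofactor FOG1 (Zfpm1) and with KLF1 to switch on the genes of the red cell membrane, heme synthesis and globin, while GATA1 together with FLI1 and RUNX1 drives platelet genes. GATA2 precedes GATA1 at many of the same sites in less mature cells. The lineages given up at this step depend on PU.1 (Spi1), C/EBP factors and the Flt3 and Il7r receptors.

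Levels are given as log2 of the background-corrected intensity relative to the 75th percentile of the same array, so that a level of 0 marks that percentile, and a change is the PreMegE mean minus the KLS mean on this scale. A gene was called at an adjusted p under 0.05 with a change of at least 2-fold. The 3 KLS arrays correlated with each other at 0.984 to 0.985 across probes and the 3 PreMegE arrays at 0.980 to 0.986, against 0.927 to 0.943 between the fractions. No array stood apart as a whole, but 2 gene groups differed among the KLS arrays: macrophage genes were highest on KLS array 1 and erythroid genes on KLS array 3, as described with each group. No slide held arrays of both KLS and PreMegE. A fit with the slide as a fixed block therefore compares them only through other fractions on the same slides, and a call lost there does not show a slide effect. Expression in bulk samples cannot tell fewer cells of a type from less RNA per cell.

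The sorting antigens went with the label in part. Slamf1, which encodes CD150, had levels of -3.28, -2.86 and -2.86 in KLS and of 0.21, 0.41 and 0.35 in PreMegE, a 10.0-fold rise (adjusted p = 4.82e-06). A second Slamf1 probe rose by 2.0. Eng, which encodes CD105, was at 2.07 ± 0.18 (SD, n = 3) in KLS and 2.15 ± 0.10 in PreMegE and was not called. The Fc receptor genes Fcgr3 and Fcgr2b changed by -0.82 and 0.07 and were not called either. Ly6a, the gene of Sca1, went against the label: its levels were 2.64, 2.38 and 2.70 in KLS and -2.92, -3.17 and -3.35 in PreMegE, a 52.5-fold fall in a fraction labelled sca1+. Cd34 fell 8.72-fold, from 6.87 ± 0.06 to 3.74 ± 0.07, and with the slide as a fixed block its change was -1.40 and no longer called. Itga2b, the gene of CD41, which marks megakaryocytes and is one of the antigens gated out, rose from -0.13 ± 0.17 to 2.84 ± 0.28.

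Of 14315 genes tested, 518 (3.62%) were called higher in PreMegE and 1421 (9.93%) lower. These percentages are the background for each gene group below. More genes were called lower than higher under this rule, but the split depended on the minimum fold change and on scaling. At the level of probes, 1060 were called higher and 2613 lower (28.9% of calls higher). With no minimum fold change, 4009 were higher and 3755 lower (51.6% higher). Scaling to the spike-in RNAs gave 449 and 4053 (9.97% higher), because it moved the median change of all probes from 0.138 to -0.326. Of the rises named below, the calls of 23 genes were lost under that scaling, among them Ldb1 (0.65), Tfr2 (0.91), Itgb3 (0.73), Stat5a (0.61), Ifngr1 (0.89), Hk1 (0.99) and Gclm (0.91).

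**Figure D1:**
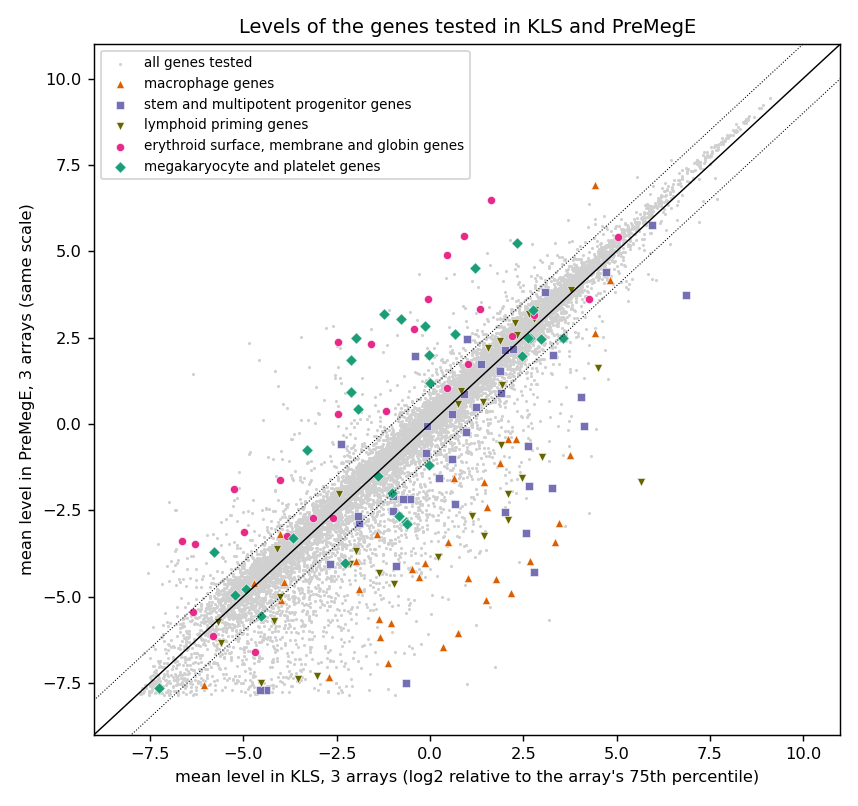
Mean level of each gene tested in KLS (x axis) and PreMegE (y axis), log2 relative to the 75th percentile of the array, n = 3 arrays each; the solid line marks equal levels and the dotted lines a 2-fold difference. Many erythroid and megakaryocyte genes lie above the lines, whereas many macrophage, stem cell and lymphoid genes lie below them. Other members of these lists lie between the lines or on the opposite side, among them Apoe, the macrophage list gene at 6.91 in PreMegE.

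The GATA factors and the factors that work with them gave 6 of 21 tested genes called higher and none lower, with a median change of 0.47 against 0.13 over all genes. Gata1 had levels of -2.31, -2.19 and -1.43 on the KLS arrays and 2.46, 2.48 and 2.51 on the PreMegE arrays, a 22-fold rise (4.46 ± 0.24, SE, adjusted p = 5.63e-10). Klf1, the erythroid Kruppel-like factor, went from -3.21, -2.76 and -1.29 to 2.06, 2.33 and 2.23, a 24.7-fold rise. In both genes the KLS arrays lay below every PreMegE array by several log2 units, with KLS array 3 the highest of the 3. Gata2, which was already at 2.56, 2.71 and 2.93 in KLS, rose 5.52-fold to 5.23, 5.41 and 4.95, so that the stem cell GATA factor was at its highest mean of all 7 fractions here rather than in KLS. The other 3 were Gfi1b, a repressor needed for red cells and platelets (5.24-fold), the GATA1 cofactor Zfpm1 (4.30-fold) and the LIM domain binding protein Ldb1, which joins GATA1 to distant elements (2.16-fold). Members present at similar levels in both fractions were Fli1 (change 0.27), Runx1 (0.36), Nfe2 (0.47), Myb (0.74) and Lmo2 (-0.60), none of which was called. Among the 16 Kruppel-like factors tested, Klf1 alone was called higher and Klf12 alone lower.

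**Figure D2:**
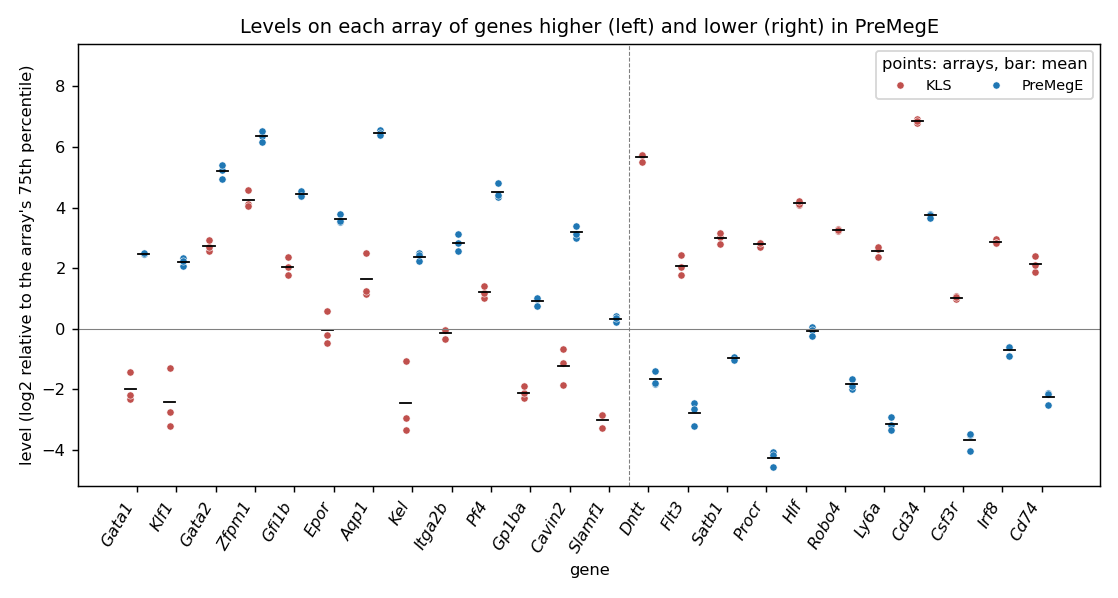
Level on each array of 13 genes higher in PreMegE (left of the dashed line) and 11 genes lower (right), log2 relative to the 75th percentile of the array; points are arrays and black bars the means of 3. No KLS point overlaps a PreMegE point of the same gene, and the KLS points of Klf1, Kel, Epor and Aqp1 are spread wider than their PreMegE points.

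Genes of the red cell surface, membrane skeleton and globins formed the list with the highest median change. Of 27 tested, 14 (51.9%) were called higher and 1 lower, with a median change of 1.85. Aqp1, the water channel of the red cell membrane, had levels of 1.14, 1.25 and 2.51 in KLS and 6.55, 6.46 and 6.41 in PreMegE (28.5-fold). Kel, which encodes the Kell blood group antigen, rose from -3.34, -2.96 and -1.06 to 2.22, 2.49 and 2.42 (28.4-fold). Epor, the erythropoietin receptor, rose from -0.22, -0.48 and 0.58 to 3.52, 3.80 and 3.55 (12.7-fold, adjusted p = 6.57e-09). For each of these 3 genes the groups were far apart and KLS array 3 was the highest KLS array. That held for 12 of the 14 genes called higher, and the part that erythroid cells among the KLS cells of that array might have in it was not tested. The carbonic anhydrase gene Car1 (23.1-fold), Tspo2, a translocator protein of erythroid cells (21.5-fold), and Ermap, the Scianna blood group antigen (15.0-fold), also rose. In the membrane skeleton, ankyrin (Ank1) rose 6.62-fold to 0.28 ± 0.02 and tropomodulin (Tmod1), with no KLS array well above background, at least 4.11-fold to -3.40 ± 0.20. One of 4 other Ank1 probes was not called.

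Some genes of abundant mature red cell products, globins among them, were not called. The globin gene Hba-a1 was at 2.21 ± 0.26 in KLS and 2.55 ± 0.41 in PreMegE (change 0.34, adjusted p = 0.371), and at 11.24 in Ter119. Hbb-bt was at 4.27 ± 0.32 and 3.62 ± 0.41, and the anion exchanger Slc4a1 at -2.59 ± 0.24 and -2.73 ± 0.47, both not called. The fatty acid transporter Cd36 was the member called lower, from 2 of 3 KLS arrays well above background to none in PreMegE, and its call was lost without KLS array 1 (-1.83), KLS array 2 (-1.58) or PreMegE array 1 (-1.30).

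A minority of heme synthesis genes rose, by small amounts. Of 18 genes tested, 5 (27.8%) were called higher and none lower, among them the mitochondrial transporter Abcb10 (2.78-fold), the porphyrin pathway enzymes Urod (2.23-fold) and Alad (2.11-fold), and the porphyrin transporter Abcb6 (2.20-fold). With scaling to the spike-ins, 1 of the list was called, and with the slide as a fixed block 3. The call of Alad was lost without KLS array 1 (0.98) or KLS array 2 (0.99). Alas2, the erythroid enzyme that starts the pathway, was at -2.49 ± 0.14 in KLS and -2.16 ± 0.32 in PreMegE (change 0.33, adjusted p = 0.446), although it reached 9.92 in Ter119. Cpox had levels of 1.71, -4.06 and 1.66 on the 3 PreMegE arrays, so that its mean rested on array 2 and no statement could be made about it. Of 15 genes of iron handling, the endosomal iron transporter Slc11a2 (5.28-fold), the ferrireductase Steap3 (3.89-fold) and the second transferrin receptor Tfr2 (2.59-fold) were called higher. One of the other Slc11a2 probes was not called. The transferrin receptor Tfrc, which is CD71, was at 0.24 ± 0.19 and 0.45 ± 0.18 and was not called. Hfe fell 10.0-fold. The iron exporter Slc40a1 fell 6.73-fold, with levels of 3.07, 2.41 and 1.45 on KLS arrays 1 to 3, the array order of the macrophage genes described below.

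The sequences 250 bases upstream of the start site are shown for 4 erythroid genes that rose and that hold the letters GATA factors are known to bind. The capitals mark AGATAA or TGATAA, or on the other strand TTATCT or TTATCA, found by a search of both strands. The sequences are from RefSeq with coordinates on GRCm38.p6, printed 5′ to 3′ on the strand of the gene.
Kel promoter (chr6:41704326-41704575, minus strand): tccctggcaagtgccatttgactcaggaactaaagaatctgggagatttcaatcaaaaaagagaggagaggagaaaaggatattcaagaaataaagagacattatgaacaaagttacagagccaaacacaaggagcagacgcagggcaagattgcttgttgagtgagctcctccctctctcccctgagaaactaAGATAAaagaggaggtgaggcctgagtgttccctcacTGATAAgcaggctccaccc
Klf1 promoter (chr8:84901732-84901981, plus strand): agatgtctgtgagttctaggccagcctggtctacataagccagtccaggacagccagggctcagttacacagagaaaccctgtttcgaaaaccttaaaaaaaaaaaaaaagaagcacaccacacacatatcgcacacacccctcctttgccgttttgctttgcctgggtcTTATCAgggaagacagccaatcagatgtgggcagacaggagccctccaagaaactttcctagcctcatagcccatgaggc
Ermap promoter (chr4:119189996-119190245, minus strand): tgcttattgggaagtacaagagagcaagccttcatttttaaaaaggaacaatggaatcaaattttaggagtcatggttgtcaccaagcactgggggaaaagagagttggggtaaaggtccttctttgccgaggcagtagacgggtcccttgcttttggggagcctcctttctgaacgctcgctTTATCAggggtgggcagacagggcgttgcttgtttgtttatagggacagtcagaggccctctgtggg
Epor promoter (chr9:21963577-21963826, minus strand): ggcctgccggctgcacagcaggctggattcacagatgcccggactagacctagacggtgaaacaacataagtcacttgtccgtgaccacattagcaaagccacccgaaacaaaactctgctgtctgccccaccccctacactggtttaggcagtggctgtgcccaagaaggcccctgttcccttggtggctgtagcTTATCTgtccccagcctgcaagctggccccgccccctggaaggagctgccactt
Kel holds 2 such matches, and Klf1, Ermap and Epor 1 each, all in the part of the window nearer the start site. Of the 16 genes of the erythroid and GATA lists that were called higher and had a window, 8 held a match, compared with 1490 of 11445 genes tested (13%), 73 of 407 called higher (17.9%) and 137 of 1084 called lower (12.6%). Among megakaryocyte genes called higher it was 3 of 11 (27.3%). A match is a description of these letters, and binding was not measured in these samples.

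Megakaryocyte and platelet genes moved both ways. Of 32 tested, 14 (43.8%) were called higher, 6 (18.8%) lower and 12 were not called, with a median change of 0.32. Pf4, platelet factor 4, was at 1.02, 1.17 and 1.42 in KLS and 4.36, 4.80 and 4.42 in PreMegE (9.99-fold, adjusted p = 3.83e-07). Cavin2, a caveolar coat protein abundant in platelets, rose from -1.84, -1.15 and -0.67 to 2.99, 3.40 and 3.14 (21.1-fold). No array of one fraction overlapped the other in either gene. The receptor for von Willebrand factor was represented by all of its subunits that were tested, with Gp5 up 15.4-fold, Gp1ba 8.14-fold, Gp1bb 5.83-fold and Gp9 3.78-fold. Its ligand Vwf rose 4.09-fold. The integrin chains Itga2b (7.85-fold) and Itgb3 (2.29-fold), the platelet receptor Treml1 (14.1-fold) and the thrombin receptor F2r (7.5-fold) were also called higher. Selp, the P-selectin of platelet granules (3.54-fold), Pdgfa (4.63-fold) and Clec1b (3.37-fold) were among the members that fell. With scaling to the spike-ins the median of this list was -0.14, which lay above the median of all probes under that scaling.

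The programs gained separated at the next step. In CFUe, the stage after PreMegE on the erythroid side, 12 of the 14 erythroid genes called higher had a higher mean than in PreMegE, with a median difference of 1.93. Of the 14 megakaryocyte genes called higher, 13 had a lower mean in CFUe, with a median difference of -3.18, and 11 had in PreMegE their highest mean of the 7 fractions. Slamf1 followed the platelet genes, at -6.39 in CFUe, where CD150 is gated out. Across the 518 genes called higher, 199 had their highest mean in PreMegE, 150 in CFUe, 77 in Ter119 and 76 in Mac1Gr1. CFUe arrays 1 and 2 differed from KLS and PreMegE in sex chromosome transcripts, with Ddx3y at -6.16 and -7.26, and CFUe array 3 did not (1.42). These profiles are a description, since the genes had been selected for being high in PreMegE.

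**Figure D3:**
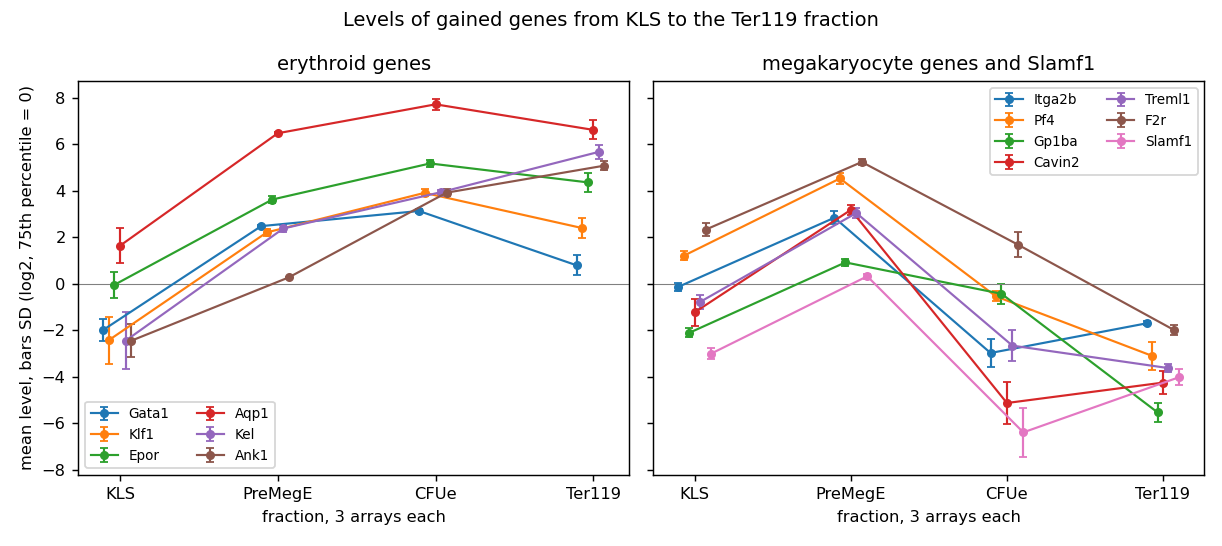
Mean level (bars SD, n = 3 arrays) from KLS through PreMegE and CFUe to Ter119 of 6 erythroid genes (left) and of 6 megakaryocyte genes with Slamf1 (right), log2 relative to the 75th percentile of the array. Each erythroid gene has a higher mean in CFUe than in PreMegE, whereas the genes on the right peak in PreMegE and drop at CFUe.

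Some of the largest rises belonged to neither lineage list. Rec114, known from meiotic recombination, led with a 62.8-fold rise, from -3.96, -3.72 and -2.68 to 2.67, 2.57 and 2.32, and reached 6.22 in Ter119. Csrp3, a muscle LIM protein, rose 50.8-fold and Zg16, a secretory granule lectin, 47.4-fold. Scin, an actin-severing protein, rose 43.5-fold from -3.08, -2.91 and -1.82 to 2.59, 2.97 and 2.96. The chemokine gene Ccl17 rose 36.3-fold, the SAM domain protein Samd14 24.9-fold, the pseudokinase Trib2 27.1-fold and Ccdc68 24.2-fold. A second Trib2 probe changed by 2.27 and was not called. In each of these 8 genes KLS array 3 gave the highest KLS value and no KLS value reached a PreMegE value. Among genes with no KLS array well above background, Il6, an inflammatory cytokine, rose at least 8.95-fold, to -2.20, -2.27 and -2.35. The lactate dehydrogenase gene Ldhc rose at least 7.77-fold, Apobec2 7.64-fold, the adhesion molecule Nrcam 7.03-fold and Reps2 4.73-fold, also as lower bounds.

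Genes of mast cells, basophils and eosinophils split. Of 24 tested, 4 (16.7%) were called higher and 8 (33.3%) lower. Il1rl1, the receptor for interleukin 33, rose 29.6-fold from -3.82, -3.48 and -2.43 to 1.39, 1.72 and 1.82, and 2 other probes rose with it. Siglecf rose 8.98-fold and Ms4a2, a chain of the IgE receptor, at least 5.99-fold. Hdc, the histamine-forming enzyme, rose 2.36-fold. The mast cell protease Cpa3 was at 0.16 ± 0.19 and 2.0 ± 0.11 but was not called (adjusted p = 0.0521). Its spread was wider in CFUe (SD 2.07) and PreGM (SD 0.855), which enter the same fit. The basophil protease Mcpt8 fell 5.43-fold and the eosinophil chemokine receptor Ccr3 15.1-fold. PreGM had more of Hdc (3.21) and Mcpt8 (1.84) than either fraction, and Ms4a2 was at -2.39 there. With the slide as a fixed block Hdc (1.22, against 1.24 in the main fit) and Mcpt8 (-2.33, against -2.44) were not called, though their changes hardly moved.

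Stem and multipotent progenitor genes were lost in part. Of 43 tested, 21 (48.8%) were called lower and 3 (6.98%) higher, with a median change of -1.18. Procr, the protein C receptor that marks stem cells, was at 2.81, 2.70 and 2.83 in KLS and -4.08, -4.18 and -4.56 in PreMegE, a 133-fold fall (adjusted p = 6.84e-11). Hlf, a transcription factor of stem cells, fell 18.5-fold from 4.08, 4.13 and 4.22 to 0.05, -0.03 and -0.23. The groups were tight and far apart in both. The guidance receptor Robo4 fell 34.3-fold, the lipoprotein receptor Vldlr 21.6-fold and the stem cell marker Fgd5, not above background on any PreMegE array, at least 29.3-fold. The quiescence factor Cdkn1c (3.46-fold), the RNA binding protein Msi2 (2.47-fold) and Mecom (2.58-fold) fell by less, and the call of Mecom was lost without PreMegE array 3 (-0.91). Other members were not called: Meis1 was at 1.86 ± 0.27 and 1.57 ± 0.07, Angpt1 at 0.92 ± 0.08 and 0.86 ± 0.16, and Mycn at 1.36 ± 0.31 and 1.74 ± 0.33. The 2 Ctla2 genes, at 6.77 ± 0.30 and 5.93 ± 0.23 in KLS, were within 0.2 of those levels in PreMegE and below 0 in CFUe. Going against the list, the retinal dehydrogenase Aldh1a1 rose 5.12-fold and the angiopoietin receptor Tek 3.51-fold. Of 19 Hox genes tested, 7 (36.8%) fell and none rose, among them Hoxa9 (3.20-fold, to 1.17 ± 0.21) and Hoxa5 (4.2-fold).

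**Figure D4:**
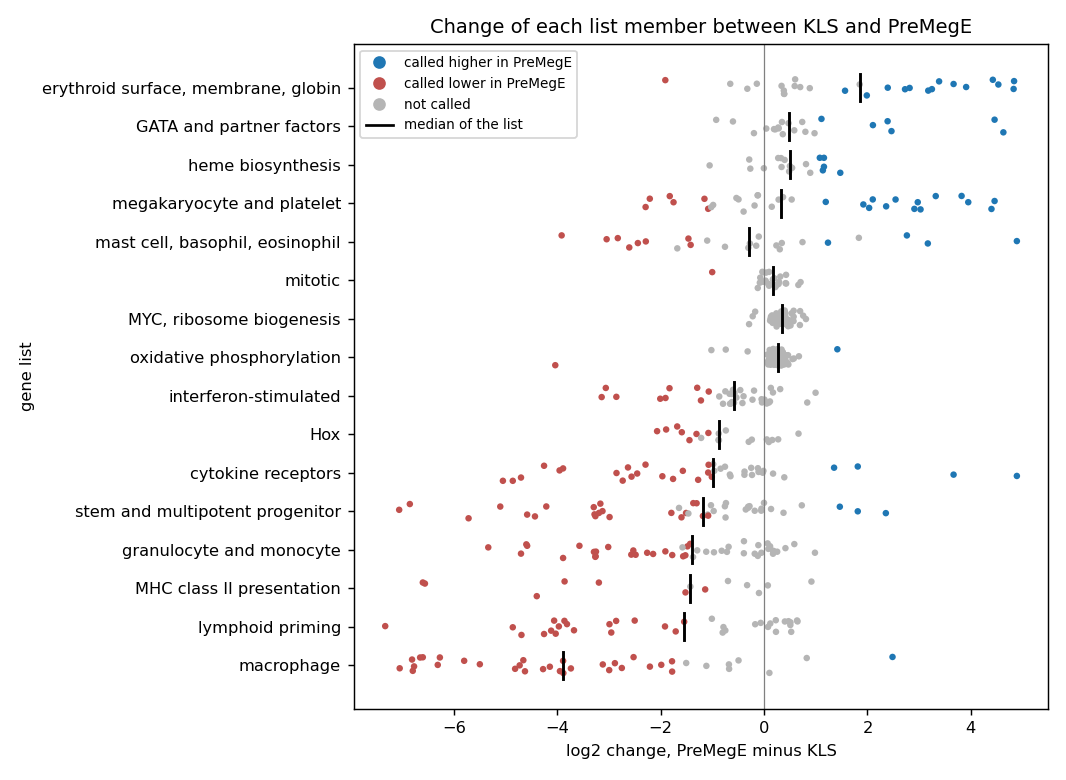
Change between KLS and PreMegE (x axis, log2) of each tested member of 16 gene lists (rows); blue and red points were called higher and lower, grey points were not called, and black bars are list medians. The erythroid list has its median at 1.85 and the macrophage list at -3.88, while the medians of the mitotic, MYC and oxidative phosphorylation lists are 0.17, 0.34 and 0.28, with single members farther out, down to -4.04 in the last.

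Lymphoid priming genes, which are switched on in multipotent cells before they become lymphocytes, fell in 18 of 35 cases (51.4%) and rose in none. The median change was -1.55, or -1.01 with dim genes at their bounds. Dntt, the enzyme that adds bases to rearranging receptor genes, fell from 5.74, 5.73 and 5.51 to -1.41, -1.81 and -1.78 (161-fold, adjusted p = 4.87e-10), and its 2 other probes fell as well. The cytokine receptor Flt3 fell 29.0-fold, from 2.04, 2.44 and 1.76 to -2.45, -2.66 and -3.23. The chromatin organizer Satb1 (15.7-fold), the receptor Notch1 (16.7-fold), the adaptor Blnk (25.9-fold) and the kinase Lck (14-fold) fell too. Il7r fell at least 5.62-fold to below background, with a second probe not called, and the recombinase gene Rag1 at least 2.01-fold. Antigen presentation by MHC class II went the same way, with 7 of 13 genes (53.8%) lower and none higher. The protease gene Lgmn fell 97.0-fold, cathepsin S (Ctss) 94.3-fold, the invariant chain Cd74 21.1-fold and H2-Aa 14.5-fold. H2-Oa (0.92), H2-Ob (0.07) and H2-DMa (-0.33) were among the members not called.

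Granulocyte and monocyte genes fell in 22 of 46 cases (47.8%) and rose in none, with a median change of -1.40. Csf3r, the G-CSF receptor, went from 1.08, 0.98 and 1.03 to -3.49, -3.47 and -4.04 (26.0-fold). Irf8, a factor of monocytes and dendritic cells, went from 2.96, 2.81 and 2.82 to -0.61, -0.61 and -0.90 (11.9-fold). The repressor Gfi1 fell 23.9-fold, while its relative Gfi1b rose, as given above. Spi1, the gene of PU.1, fell 2.69-fold (adjusted p = 0.00635) and Cebpa 2.79-fold, with a second Cebpa probe at -0.95 not called. Granule genes moved less: Prtn3 fell 2.87-fold, Elane was at -0.46 ± 0.23 and 0.13 ± 0.30, and Mpo, measured on 2 PreMegE arrays, was at 7.22 ± 0.28 and 5.84 ± 0.06, and the last 2 were not called. With the slide as a fixed block 13 of the 46 genes were called lower, and Irf8 (-2.28), Spi1 (-0.65), Cebpa (-0.83) and Prtn3 (-0.89) were no longer among them. Of 12 Toll-like receptor genes and partners, 8 (66.7%) fell, led by Tlr7 (at least 24.1-fold). The 8 include Tlr8, which was not well above background on any KLS or PreMegE array.

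Cytokine receptors shifted with these lineages. Of 39 tested, 19 (48.7%) fell and 4 (10.3%) rose. Apart from Flt3, Csf3r and Il7r, the falls included Il1r1 (33.1-fold, from 1.39, 1.48 and 1.05 to -3.95, -3.78 and -3.49), Il10ra (15.5-fold), the shared interleukin 6 subunit Il6st (6.2-fold) and the common beta chain Csf2rb (4.90-fold, with 1 of 2 other probes not called). The rises were Il1rl1, Epor, Tek and Ifngr1. Csf2ra, at 4.01 ± 0.07 and 4.19 ± 0.13, and Il3ra, at 2.02 ± 0.40 and 2.0 ± 0.58, were not called. Below the receptors, 2 (7.69%) of 26 JAK-STAT and feedback genes rose and 6 (23.1%) fell. The rises were Jak2 (2.15-fold) and Stat5a (2.10-fold), the kinase and the factor through which Epor signals. The feedback inhibitors Socs3 (5.50-fold) and Socs2 (2.85-fold) were among the falls. Other feedback genes, Cish (0.07), Pim1 (0.23) and Socs1 (-0.63), were not called. Of 28 chemokine, cytokine and NF-kB genes, 9 (32.1%) fell and 5 (17.9%) rose. Ccl3 fell 115-fold, from 4.63, 4.27 and 3.90 to -2.14, -2.29 and -3.32, while Tnfaip2 rose 5.82-fold and Tnfaip3, an NF-kB inhibitor, 2.85-fold. Jak2 (0.96) and Tnfaip3 (1.02) were not called with the slide as a fixed block. Interferon-stimulated genes gave 9 lower of 37 (24.3%) and none higher, among them Ifit3 (8.35-fold) and Oasl2 (3.75-fold). In the Wnt and Notch list, 8 of 29 (27.6%) fell, including the Notch targets Hes1 (9.43-fold) and Hey1 (6.02-fold). The Wnt target Axin2 rose at least 2.19-fold. Heyl, a Notch target, rose at least 1.62-fold, and its call was lost without KLS array 3 (fitted change 0.99) or PreMegE array 2 (1.0). The inhibitor Id2 fell 14.1-fold, and Tgfbr3 rose 6.12-fold.

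Macrophage transcripts were present in KLS and made up many of the deepest falls. Of 37 tested, 29 (78.4%) were called lower and 1 higher, with a median change of -3.88, or -3.74 with dim genes at their bounds. Cd5l, a scavenger protein that tissue macrophages secrete, had levels of 4.12, 3.29 and 2.64 on KLS arrays 1 to 3 and of -2.47, -2.93 and -4.86 on PreMegE arrays 1 to 3 (109-fold). The complement gene C1qc was at 3.49, 2.56 and 2.02 in KLS and -3.04, -3.98 and -4.87 in PreMegE (101-fold). Vcam1, an adhesion molecule of marrow macrophages and stroma, was at 4.17, 3.56 and 2.64 in KLS and -2.31, -2.76 and -3.50 in PreMegE (79.4-fold). In each of these genes KLS array 1 was the highest and KLS array 3 the lowest, and every KLS array lay above every PreMegE array. The ficolin gene Fcna fell 132-fold, Adgre1, which encodes F4/80, 45.2-fold, and the heme oxygenase Hmox1 25.2-fold. With no PreMegE array above background, the mannose receptor Mrc1 fell at least 58.3-fold, the phagocytic kinase Mertk 21.2-fold, the factor Maf 18.1-fold and Timd4 7.06-fold. Igf1 (46.5-fold) and the lysosomal transporter Slc11a1 (at least 44.4-fold), which macrophages also express, had the same order of KLS arrays. So had some falls named under other groups, among them Slc40a1, Ccr3 (0.36, -0.15 and -1.07), Id2 (1.52, 0.90 and 0.33), Lgmn (2.20, 1.54 and 0.76), Socs3, Ccl3 and Ctss. Cd74 and H2-Aa had the reverse order. The part of macrophage transcripts in these falls was not tested.

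All 29 macrophage genes called lower were highest on KLS array 1 and 28 were lowest on KLS array 3. Their median level was 1.56, 0.68 and 0.13 on the KLS arrays and -3.49, -4.00 and -4.79 on the PreMegE arrays. The gap between fractions was thus larger than the spread within KLS. Of the 37 tested genes, 35 were well above background on all KLS arrays, 23 on all PreMegE arrays, 26 on all PreGM arrays and 11 on all CFUe arrays. Their highest mean of the 7 fractions was in KLS, not in Mac1Gr1, for 19 of them. That count is a description, since most of the list had been called higher in KLS than in PreMegE. The summed level of the list was 7.91, 7.18 and 6.96 in KLS and 7.29, 7.40 and 7.09 in PreMegE, a sum to which Apoe belongs. Apoe, a lipid carrier that is also made outside macrophages, was the member that went against the list, rising 5.60-fold from 4.86, 3.97 and 4.45 to 6.94, 7.06 and 6.74. Of the 37 genes, 9 were also on another list. Mac1 is one of the antigens gated out of KLS, and its gene Itgam lay at -1.90 ± 0.41 in KLS. Whether macrophages were among the sorted KLS cells was not tested.

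**Figure D5:**
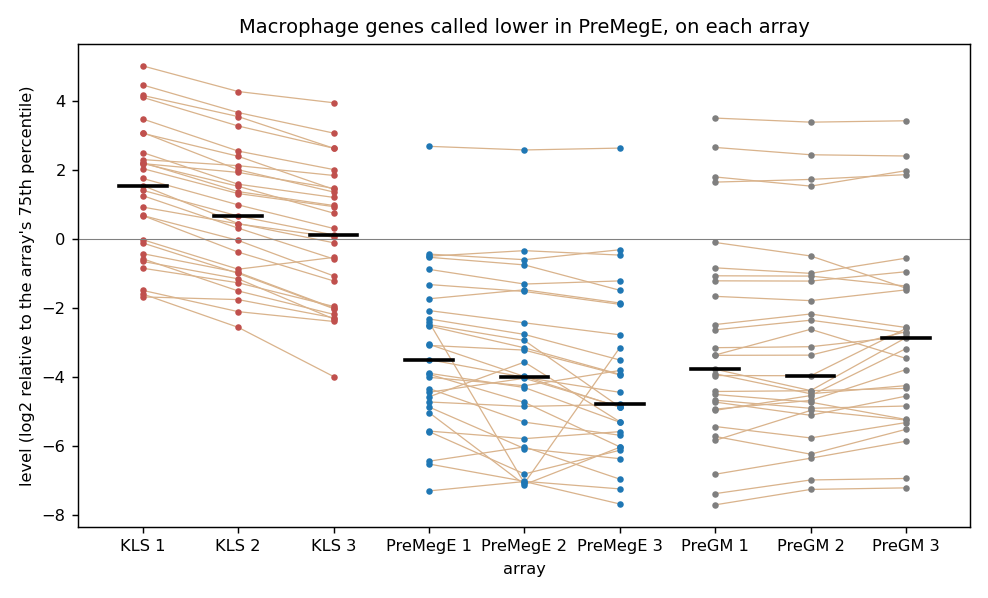
Level of the 29 macrophage genes called lower in PreMegE (points, joined within a fraction) on each KLS, PreMegE and PreGM array, log2 relative to the 75th percentile of the array; black bars are medians. The KLS medians are 1.56, 0.68 and 0.13 and those of PreMegE and PreGM lie between -4.79 and -2.85.

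Other cell types gave smaller losses. B cell and plasma cell genes fell in 7 of 18 cases (38.9%), led by the immunoglobulin J chain Jchain (121-fold, from 1.63, 1.58 and 1.64). Dendritic cell genes fell in 8 of 14 (57.1%), led by Itgax, which encodes CD11c (at least 28.5-fold), though 8 of the 14 are also on other lists. T and NK cell genes fell in 5 of 21 (23.8%) and rose in 1, and their defining markers Cd3e, Cd4 and Cd8a were not called. Endothelial and stromal genes fell in 7 of 23 (30.4%), led by Emcn (17.7-fold, to -1.94 ± 0.14), and rose in 2, Col1a2 and Tek. The 7 falls include Col1a1, which was not well above background on any KLS or PreMegE array. The summed level of the B cell list was 4.15 to 4.33 on the KLS arrays and 2.83 to 3.01 on the PreMegE arrays. The part of such cells in the other falls was not tested.

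The deepest falls outside these lists included Itgb5, an integrin chain (82.4-fold, from 2.57, 2.33 and 2.25 to -3.85, -4.39 and -3.70), and Laptm4b, a lysosomal membrane protein (48.6-fold). Genes that fell to below background on every PreMegE array were led by Sgsm1, a regulator of small GTPases, at 1.92, 1.83 and 1.51 in KLS (at least 155-fold), Wfdc18 (at least 91.0-fold), the myosin chaperone Unc45b (at least 79.0-fold) and Crybg1 (at least 39.0-fold). The KLS arrays lay within 0.5 of each other in each of these genes, a narrower spread than in Cd5l, C1qc and Vcam1. Itgb5 and Sgsm1 nonetheless had the KLS array order of the macrophage genes, and the part of macrophage transcripts in their falls was not tested. Of 269 solute carriers, 16 (5.95%) rose and 32 (11.9%) fell, which is near the background. The urea transporter Slc14a1, the Kidd blood group antigen, rose 9.08-fold to 5.33 ± 0.15, the amino acid transporter Slc38a5 11-fold and Slc45a3 13.2-fold, while Slc16a11 fell 38.3-fold from 4.29, 4.2 and 4.47 to -0.92, -0.96 and -0.94. Among the 14 tubulins, Tuba8 rose 10.9-fold and Tubb6 fell 6.57-fold.

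Few growth and housekeeping genes were called. None of 37 DNA replication genes, 43 genes of the MYC network and ribosome biogenesis, 47 proteasome subunits or 27 polycomb and DNA methylation genes was called. Of 25 mitotic genes, 1 was called lower, Kif23 (2.0-fold), and its call was lost without KLS array 1 (-0.96), KLS array 2 (-0.92) or PreMegE array 1 (-0.98). Myc itself was at 3.40 ± 0.17 and 3.72 ± 0.31. Mki67, a marker of cycling cells, was at 4.97 ± 0.10 and 5.67 ± 0.12, a rise below the 2-fold minimum (change 0.71, adjusted p = 0.00435). Single members were called among 82 cytosolic ribosomal proteins (Rpl3l lower), 78 mitochondrial ribosomal proteins (Mrpl52 higher) and 80 subunits of oxidative phosphorylation (Cox6b2 higher, Cox6a2 lower). Their medians of 0.33, 0.28 and 0.28 were above the 0.13 of all genes by at most 0.2. Changes above 0, mostly below the 2-fold minimum, were found for 80, 75 and 76 members of these lists. The same held for 40 of the 43 MYC network and ribosome biogenesis genes. Between arrays, the medians of the first 3 lists had combined SDs of 0.36, 0.27 and 0.40, similar in size to their changes. The call of Mrpl52 was lost without KLS array 2 (0.94). Of 20 genes of the G1 phase, the kinase Cdk6 (2.47-fold), Cdkn2d (2.19-fold) and Rb1 (2.06-fold) rose and Cdkn1c fell, and Rb1 was not called without KLS array 3, where its change was 1.0.

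Isozymes of sugar metabolism moved in opposite directions. Of 27 glycolysis genes, 2 (7.41%) rose and 8 (29.6%) fell. Hexokinase 1 (Hk1), the form of red cells, rose 2.74-fold from 4.21, 4.02 and 4.47 to 5.72, 5.83 and 5.52, and Hk3, the form of myeloid cells, fell 12.3-fold from 2.35, 2.36 and 2.46 to -1.24, -1.13 and -1.30. Pklr, the pyruvate kinase of red cells and liver, rose 2.58-fold, a call lost with the slide as a fixed block (0.98), and the lactate dehydrogenase chain Ldhb fell 8.97-fold. Of 35 antioxidant and stress genes, 8 (22.9%) rose and 2 fell. The quinone reductase Nqo1 rose 4.32-fold, the metallothionein Mt1 4.48-fold and the glutathione synthesis subunit Gclm 2.58-fold. The heat shock genes Hspa1a (4.41, 6.06 and 6.15 in KLS, 6.19, 7.94 and 7.35 in PreMegE) and Hspb1 (-1.77, 1.21 and 0.93 in KLS, 0.47, 3.52 and 2.58 in PreMegE) were also called higher, but their groups overlapped or nearly met, and array 1 was the lowest of both fractions. Neither was called with the slide as a fixed block (1.88 and 2.11), and Hspb1 was not called without KLS array 1 (1.12), PreMegE array 2 (1.40) or PreMegE array 3 (1.87). Of 26 immediate early genes, Egr2 was called higher (1.72) and Fosl2 lower. The call of Egr2 was lost when any array but KLS array 2 was left out (1.53 to 1.76). Fos was at 7.04 ± 0.12 and 7.08 ± 0.12.

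PreMegE was set beside PreGM, the fraction that leaves KLS toward granulocytes and monocytes. Of 14315 genes, 747 (5.22%) were called higher in PreMegE than in PreGM and 1014 (7.08%) lower. The PreMegE arrays enter both comparisons, so that they are not independent. The PreGM arrays were not alike in transcripts of the sex chromosomes. The Y-linked gene Ddx3y was at -6.18, -7.22 and 1.41 on PreGM arrays 1 to 3, against 1.78 ± 0.13 in KLS and 1.73 ± 0.15 in PreMegE. Xist, the RNA of the inactive X chromosome, was at 5.53, 5.61 and -6.72 on the PreGM arrays and not well above background on any KLS or PreMegE array. PreGM array 3 thus matched KLS and PreMegE, while arrays 1 and 2 did not. With PreGM array 3 alone, assumed to vary like the other fractions, 642 genes were called higher and 856 lower, an alternative chosen after seeing the data. The erythroid list gave 19 of 27 genes higher in PreMegE (19 with PreGM array 3 alone) and the megakaryocyte list 19 of 32 (18). Gata1 was higher by 3.24 ± 0.24 (SE) and Epor by 4.11 ± 0.25. Hba-a1 and Alas2, which were not called against KLS, were higher than in PreGM by 3.23 ± 0.26 and 3.0 ± 0.29, and by 2.55 and 2.39 with PreGM array 3 alone. Alas2 was well above background on 2 of the 3 PreGM arrays. Granulocyte and monocyte genes were lower in 32 of 46 cases and lymphoid genes in 16 of 35 (30 and 13 with PreGM array 3 alone). Spi1 was lower by 2.67 on the log2 scale and Cebpa by 3.13. Stem cell genes split, with 12 lower and 10 higher of 43: Procr was lower (-3.94), and Meis1 (1.49) was higher, a call lost with PreGM array 3 alone (0.98). Macrophage genes gave 4 higher and 10 lower of 37, with a median difference of -0.33: C1qc and Cd5l, which fell over 100-fold from KLS, differed from PreGM by 0.24 and -0.29 and were not called.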

How the data were processed

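RNA from 7 fractions of mouse bone marrow, 3 arrays each, had been amplified, labelled with Cy3 and hybridised alone to whole mouse genome arrays. Each array's deposited scanner file gives a spot's intensity after background correction, made by the authors in Agilent Feature Extraction 10.7.1.1. A deposited table of the whole series, with log2 values the authors had already normalized, served as an alternative. The study's methods name LIMMA and SAM for the arrays, without a version or a normalization method.

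Levels were log2 of this intensity minus the 75th percentile of the array, without control spots and outlier spots (82 to 283 on the KLS and PreMegE arrays); no spot was saturated. Between 63.9% and 77.4% of spots on these 6 arrays were well above background. A probe was tested if some fraction had it well above background on each of its 3 arrays (29532 probes). RefSeq accessions named 26690 of 41174 probes (64.8%) through a table of GRCm38.p6, and the probe with the highest mean over 21 arrays stood for a gene (14315 genes). Upstream sequences came from RefSeq on the same build. All p values are from limma 3.58.1 in R 4.3.3 (two-sided), 1 fit of 21 arrays with p values adjusted by Benjamini-Hochberg across all of these probes, 14 residual degrees of freedom and a median residual SD of 0.262; the number of arrays limits the precision. Calls needed an adjusted p under 0.05 and at least 2-fold. "At least" marks a lower bound, used where no array of a fraction was well above background: the brighter mean was set against a floor, averaged over the dim arrays, which was the array's lowest signal of any probe well above background or the probe's own signal where that was higher. On simulated data for PreMegE vs KLS with 29532 probes, 172 of 200 probes changed by 2 (log2) were called (86%), with 1 unchanged probe. Python 3.11.15, pandas 2.3.3 and matplotlib 3.10.9 were used for tables and figures.

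The members and gene lists were chosen with earlier results of these data known. Named genes were the 12 largest called rises and 12 largest falls measured on all 6 arrays without overlap, the 6 largest bounds in each direction, and list members named for their role or the size of their change. Alternatives were quantile and spike-in scaling, normexp background correction (offset 50), 2 other filters on dim probes, slide and replicate number as blocks, the series table, other call and probe rules, a fit of the 6 arrays alone, each array left out in turn and, added after seeing the data, PreGM array 3 alone. Some list members were counted and are not reported by name here.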

Additional observations from a re-analysis of the deposited data

Results flagged for a closer look

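The change from KLS to PreMegE was set against the change from KLS to PreGM. For a gene, the difference of these changes equals the PreMegE mean minus the PreGM mean, tested with limma. Of the 36 genes chosen by rule, 28 differed between PreMegE and PreGM at an adjusted p under 0.05 and at least 2-fold, 17 higher in PreMegE and 11 lower, where 5.22% and 7.08% of all genes were called. These genes had been chosen for their large changes between KLS and PreMegE, and the same PreMegE arrays enter both comparisons, so the count is not independent of that choice. PreGM arrays 1 and 2 differed from the PreMegE arrays in sex chromosome transcripts and PreGM array 3 did not. With PreGM array 3 alone, 25 of the 28 genes were called, and Csrp3 (1.1), Scin (2.19) and Il6 (1.09) were not.

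Among genes higher in PreMegE than in PreGM, the log2 differences were Rec114 (3.7), Csrp3 (1.76), Zg16 (4.34), Scin (2.97), Ccl17 (3.85), Il1rl1 (2.78), Aqp1 (4.31) and Kel (3.86). The others were Trib2 (4.4), Samd14 (4.5), Klf1 (4.09), Ccdc68 (3.93), Il6 (1.7), Ldhc (2.93) and Nrcam (2.03), and 1 of 3 PreGM arrays was well above background for Ldhc. With no PreGM array well above background, Apobec2 was higher by at least 6.81-fold (2.77) and Reps2 by at least 4.23-fold (2.08), with the bounds on the log2 scale in parentheses.

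Among genes lower in PreMegE than in PreGM, the log2 differences were Dntt (-6.25), Procr (-3.94), Ccl3 (-7.27), Ctss (-6.2), Itgb5 (-5.19), Ly6a (-2.83), Laptm4b (-4.01) and Adgre1 (-2.84). With no PreMegE array well above background, Sgsm1 was lower by at least 10.6-fold (-3.41), Wfdc18 by at least 10.9-fold (-3.44) and Crybg1 by at least 9.54-fold (-3.25). Ccl3 was at 4.26 in KLS and 4.68 in PreGM, and Ctss at 3.61 and 3.25. The macrophage gene Mrc1 was at 0.34 in KLS and not well above background on any PreMegE or PreGM array. Cd5l (-0.29), C1qc (0.24), Vcam1 (0.81) and Igf1 (-0.05) were not called between PreMegE and PreGM.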

How the results depend on the processing

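The direction of the called genes followed was the same under each alternative run. Of 190 genes followed, which did not include Lgmn, 140 kept their side of the threshold under every setting. Calls depended on scaling and on the fold threshold. For PreMegE vs KLS (1060 probes higher, 2613 lower), the numbers higher and lower were 449 and 4053 with spike-in scaling, 612 and 1494 with normexp, 524 and 1431 with 1 probe per gene, and 1568 lower when a probe had to be detected on all 6 arrays; 4009 were higher and 3755 lower with no minimum fold change. For PreMegE vs PreGM (1724 higher, 1833 lower) they were 811 and 1095 with normexp, 4264 and 3846 with no minimum fold change, and 751 and 1019 with 1 probe per gene, with 1188 lower when detected on all 6 arrays. Spike-in scaling gave 59.5% higher there, against 48.5%. PreGM array 3 alone, added after seeing the data, gave 1325 and 1444. With spike-in scaling the calls were 1 for heme biosynthesis higher, 11 for Hox lower and 18 for interferon-stimulated genes lower, and the median of the megakaryocyte list was -0.14. With no minimum fold change they were 10 for GATA factors and 12 for heme higher, and 18 for interferon-stimulated genes lower. With the slide as a fixed block, heme gave 3 and granulocyte and monocyte genes 13; with the series table heme gave 2; with normexp Hox gave 3; with detection on all 6 arrays the macrophage list gave 18. Leaving out 1 array gave 938 to 1083 probes higher and 2360 to 2635 lower. In KLS and PreMegE, arrays of the same number deviated together in 1 of 3 pairs (correlations 0.367, -0.05 and -0.051), and the labels tie the numbers to nothing shared; the replicate block gave 1062 higher and 2610 lower, and 1728 and 1831 against PreGM. The block moved no count of calls by over 1.5 times. The causes were not tested. Signal over background limits the falls: where no array of a fraction detected a gene, its fold is a lower bound.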
